A study of Homo sapiens with 6 samples.

Results

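The genes described here are the 10 nuclear genes POLG, POLG2, TWNK, SSBP1, TOP1MT, MGME1, PRIMPOL, TK2, DGUOK and RNASEH1, which copy and maintain mitochondrial DNA (mtDNA). They were chosen by name for this function, with earlier results of these data known. All 10 were found among the 16798 coding genes of the deposited table. Bulk RNA sequencing was performed on COV434 cells, an immortalized human line that the labels give as granulosa cells (GCs). The control group had 3 samples, labelled WT and not treated with 4HC. The 4HC group had 3 samples treated with 15 µM 4HC, the active form of the alkylating drug cyclophosphamide (CTX), for 24 h. All samples came from this 1 cell line, and nothing states whether the 3 samples of a group were grown separately, so that the p-values measure the spread between these samples, which may be technical.

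Human mtDNA is a small circular genome held in many copies per cell, and all the proteins that copy it are encoded in the nucleus and imported. The helicase Twinkle opens the duplex, the single-stranded DNA-binding protein covers the exposed strand, and polymerase gamma, made of a catalytic and an accessory subunit, copies it from primers laid down by the mitochondrial RNA polymerase. Nucleases then remove primers and flaps, and in cells that are not dividing the building blocks come largely from salvage kinases inside the organelle. Inherited defects of several of these genes cause mtDNA depletion or deletions, and POLG variants have been linked to early loss of ovarian function.

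The total of expected counts, which are estimates of the reads from each gene, was 16133786 to 16702316 per sample. Of the variance over all genes, 53.4% lay on the first principal component, and replicates varied with a biological coefficient of variation of 0.0277. Of 12 granulosa markers, 10 were in the table and 4 reached 1 TPM (a level per transcript length, scaled to the same sum in each sample) in control. These were AMH (5.34 TPM), INHA (1.18 TPM), HSD17B1 (22.5 TPM) and GJA1 (15.2 TPM), while FOXL2 was at 0 TPM and FSHR at 0.00333 TPM in control, so that defining markers of the labelled cell type were at or near 0. The summed level of the granulosa markers was 39.0 to 48.7 TPM in control and 41.6 to 42.7 TPM in 4HC. DCN and LUM, known from stroma, carried most of a stromal sum of 53.2 to 57.6 TPM in control and 53.1 to 56.0 TPM in 4HC, the leukocyte sum was 2.1 to 2.42 and 2.38 to 3.16 TPM, from CD68 (1.67 TPM in control) and PTPRC (0.553 TPM), and the endothelial sum stayed at or under 0.06 TPM.

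All 10 genes passed the filter on low counts. Their levels are given as CPM, the counts scaled to a common library size with TMM factors. With edgeR's quasi-likelihood test over 12368 genes and Benjamini-Hochberg adjustment, 2 of the 10 were higher in 4HC, MGME1 and PRIMPOL, 3 were lower, TWNK, RNASEH1 and SSBP1, and 5 were not called. Among all genes tested, 19.2% were higher and 17.1% lower, and 36.4% were called in either direction, and 5 of 10 is not far from that share. None of the 10 reached the study's criterion of a fold change of at least 2 with an unadjusted p under 0.05. In this edgeR fit, 1.15% of all genes tested reached it. The study itself, with DESeq2, reported far more genes by this criterion, and the reason for the difference was not tested. In 5 of the 10 genes the control and 4HC samples did not overlap, against 45.3% of all genes tested. The changes were of moderate size, and the 10 genes did not move as one group: their median log2 fold change was -0.00, that of all genes tested was 0.00, and the individual values went from -0.43 for TWNK to 0.67 for MGME1. In a bulk sample, fewer cells that express a gene and less of its RNA per cell cannot be told apart.

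**Figure D1:**
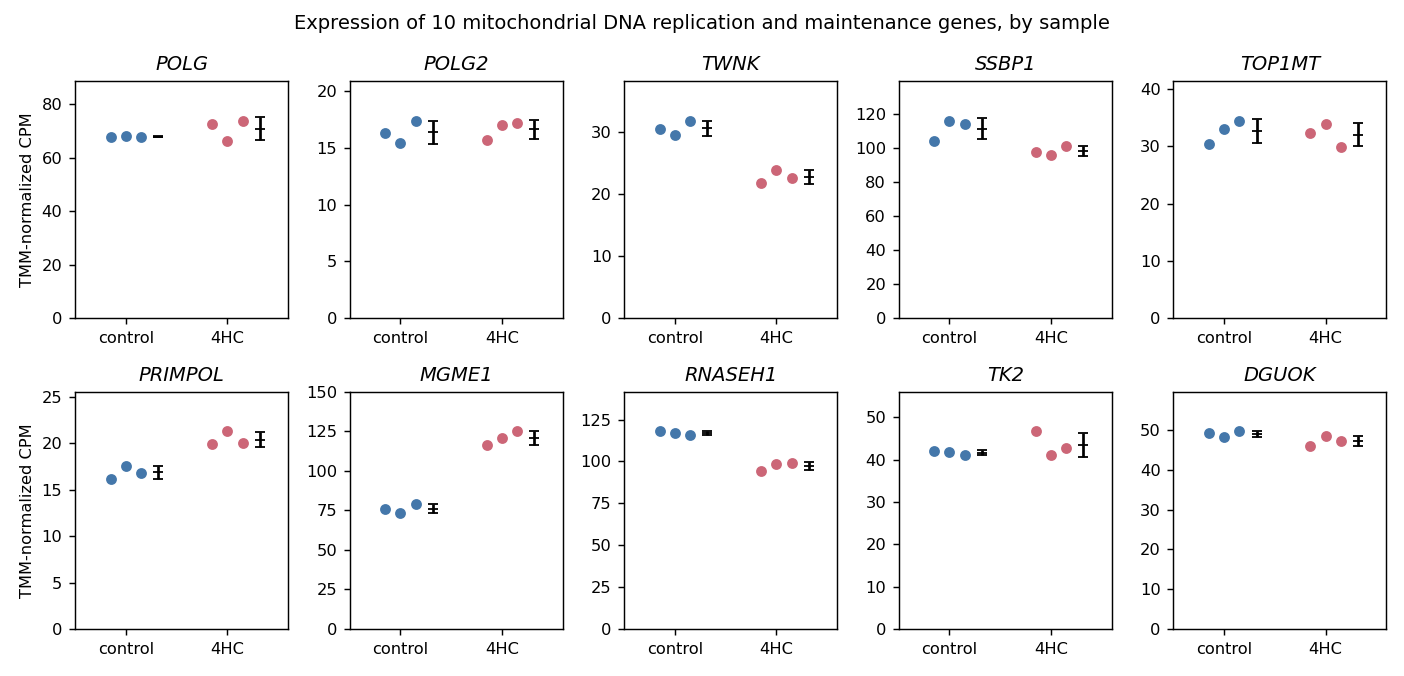
TMM-normalized CPM (y axes from 0) of the 10 genes in the 3 control and 3 4HC samples, each point 1 sample, with the mean and SD (n = 3) as a bar beside the points. MGME1 and PRIMPOL are higher in all 3 4HC samples than in any control, TWNK, RNASEH1 and SSBP1 are lower in all 3, and the groups of the other 5 genes overlap.

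Promoter sequence is shown for the 4 called genes that have a window in the table, since they moved in opposite directions. Of the 10 genes, 8 had a RefSeq window of the 250 bases before an annotated start (GRCh38.p14), and for SSBP1 the first of 3 windows was used. Some windows lie inside the gene by other annotated coordinates. The window of MGME1 is inside its deposited span, that of RNASEH1 inside its GENCODE span, and that of TK2 inside both spans of TK2. Matches, and their absence, therefore describe the window of the start used and not every start of a gene. Both strands were searched for CGGAAG (ETS core, bound by GABPA), CATGCGC (NRF1), TTCCCGC and TTGGCGC (E2F), TGACGTCA (CREB/ATF), AAGATGGC (YY1), GGGCGG (GC box), CCAAT and the p53 half-site. Capitals mark the matches on either strand, and each window is printed 5′ to 3′ on the strand of its gene.
MGME1 (chr20:17968768-17969017, plus strand): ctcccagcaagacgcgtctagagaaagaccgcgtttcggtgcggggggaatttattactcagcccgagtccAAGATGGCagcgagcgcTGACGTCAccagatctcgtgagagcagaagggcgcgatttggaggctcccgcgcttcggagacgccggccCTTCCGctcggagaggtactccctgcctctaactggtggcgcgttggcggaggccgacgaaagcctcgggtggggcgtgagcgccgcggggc
PRIMPOL (chr4:184649488-184649737, plus strand): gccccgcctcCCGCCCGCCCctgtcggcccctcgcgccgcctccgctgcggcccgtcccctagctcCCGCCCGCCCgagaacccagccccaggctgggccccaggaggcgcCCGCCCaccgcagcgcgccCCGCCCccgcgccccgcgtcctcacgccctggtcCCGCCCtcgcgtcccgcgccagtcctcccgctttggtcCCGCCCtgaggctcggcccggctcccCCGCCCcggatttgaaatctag
RNASEH1 (chr2:3558334-3558583, minus strand): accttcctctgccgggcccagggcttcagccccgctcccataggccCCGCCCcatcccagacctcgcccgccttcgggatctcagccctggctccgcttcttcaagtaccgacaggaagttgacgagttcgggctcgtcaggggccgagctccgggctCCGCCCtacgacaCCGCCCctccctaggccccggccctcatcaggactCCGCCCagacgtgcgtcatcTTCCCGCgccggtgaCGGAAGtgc
SSBP1 (chr7:141738071-141738320, plus strand): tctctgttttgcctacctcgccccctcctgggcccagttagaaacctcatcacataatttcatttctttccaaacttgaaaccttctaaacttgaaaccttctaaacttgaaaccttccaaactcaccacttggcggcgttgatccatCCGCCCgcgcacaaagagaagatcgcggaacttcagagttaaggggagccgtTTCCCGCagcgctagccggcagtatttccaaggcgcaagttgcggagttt

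MGME1, the gene with the largest rise of the 10, had 1 ETS core at bases -92 to -87 from the start, 1 CREB/ATF site at -162 to -155 and 1 YY1 site at -179 to -172. Its ETS core read on the reverse strand. Over all 35116 windows of this length, 16.5% held an ETS core, 1.65% the CREB/ATF site and 1.36% the YY1 site. PRIMPOL, the other gene that rose, had 9 GC boxes and no other match in a window of 80.8% G and C, where the median of all windows was 58.0% and 42.6% held a GC box. The GC boxes of PRIMPOL at -240 and -236, and those at -184 and -180, overlapped in pairs.

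Both genes with a window that fell, RNASEH1 and SSBP1, had the E2F letters TTCCCGC, which 5.52% of all windows held. In RNASEH1 they lay at -24 to -18, beside an ETS core at -9 to -4 and 4 GC boxes, and in SSBP1 at -50 to -44 with 1 GC box at -102 to -97. Among the uncalled genes, POLG2 had an NRF1 site (held by 3.77% of windows) at -65 to -59 next to an ETS core at -59 to -54, the 2 matches sharing 1 base. DGUOK had an ETS core that overlapped a GC box at -19 to -14, and a CCAAT box at -231 to -227. POLG had 3 CCAAT boxes, a motif in 32% of all windows and in 2 of these 8. No match of any kind was found in the window of TK2. In all, the ETS core was in 4 of 8 windows and the GC box in 6 of 8, while TTGGCGC (2.56% of all windows) and the p53 half-site (5.57%) were in 0 of 8. The matches are descriptions of these letters and were not tested as binding sites.

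**Figure D2:**
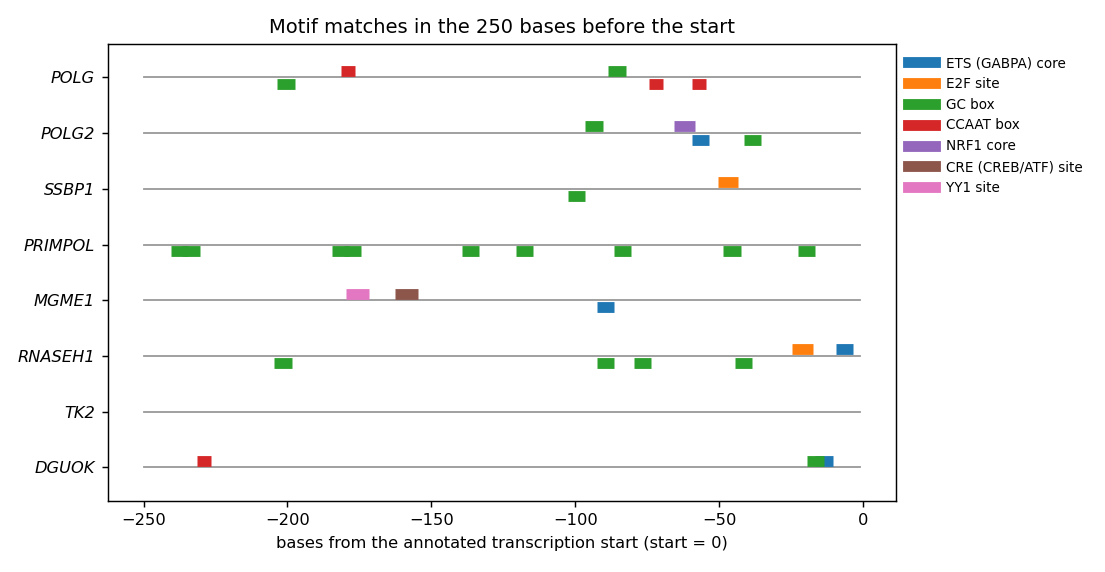
Positions of the motif matches in the 250 bases before the RefSeq start of the 8 genes with a window (x axis, bases from the start). Blocks above a line read on the gene's strand and blocks below it on the other. PRIMPOL holds only GC boxes, MGME1 has its 3 matches upstream of base -86, and TK2 has none.

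At the replication fork, the catalytic polymerase and its accessory subunit showed no detectable change, while the helicase and the single-stranded DNA-binding protein were lower in 4HC. POLG, the catalytic subunit of polymerase gamma (NCBI Gene 5428, GRCh38 chromosome 15, 89316320 to 89336330 in the deposited table), was at 67.6, 68.1 and 67.8 CPM in control and at 72.7, 66.0 and 73.8 CPM in 4HC. The controls lay close together and within the range of the 4HC samples. The log2 fold change was 0.06 (SE 0.047, 95% confidence interval -0.03 to 0.16, adjusted p = 0.32). POLG2, the accessory subunit that holds the enzyme on its template (chromosome 17, 64477785 to 64497265), was at 16.3, 15.4 and 17.4 CPM in control and 15.7, 17.0 and 17.2 CPM in 4HC. Its groups overlapped over almost their whole range, with a log2 fold change of 0.02 (SE 0.080, interval -0.14 to 0.19, adjusted p = 0.841). The ratio of POLG to POLG2 on the TPM scale was 1.29 ± 0.0826 (SD, n = 3) in control and 1.33 ± 0.117 in 4HC (exact permutation test, two-sided p = 0.8, where 3 samples against 3 cannot give less than 0.1).

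TWNK, which encodes Twinkle (chromosome 10, 100987543 to 100994403), was at 30.5, 29.4 and 31.8 CPM in control. In 4HC it was at 21.7, 23.9 and 22.5 CPM. Each 4HC sample was below every control. TWNK fell by 0.43 on the log2 scale (SE 0.064, interval -0.56 to -0.30, edgeR adjusted p = 3.11e-07), a fold of 0.74 and the largest fall of the 10 genes. Its value was at percentile 2.2 of all genes tested, and 17.8% of the genes called in either direction had a change at least as large. TWNK starts head to head with MRPL43, a gene of the mitochondrial ribosome on the opposite strand, with 148 bases between the starts and 149 shared exon bases in GENCODE 29. MRPL43 was at 50.1, 51.0 and 46.3 CPM in control and 54.1, 52.8 and 49.8 CPM in 4HC (log2 fold change 0.09, SE 0.053, adjusted p = 0.191), so that a fall was seen in TWNK and not in its neighbor. The difference between the 2 genes was not tested.

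SSBP1, the single-stranded DNA-binding protein of mitochondria (chromosome 7, 141738321 to 141787922 in GENCODE 29), was at 104, 116 and 114 CPM in control and 97.7, 95.6 and 101 CPM in 4HC. The lowest control stood nearer to the 4HC samples than to the other controls, but the groups did not overlap. SSBP1 fell by 0.18 on the log2 scale (SE 0.043, interval -0.27 to -0.09, adjusted p = 6.98e-04, edgeR), a fold of 0.88. It was the most abundant of the 10 genes per transcript length, at 499 ± 31.6 TPM (SD, n = 3) in control and 433 ± 12.2 TPM in 4HC. The table sums reads of SSBP1 over a copy on chromosome 7 and a copy on an alternate scaffold of the assembly, which carry the same gene. The scaffold copy was given 40.0%, 39.0% and 36.8% of the reads in control and 42.5%, 36.8% and 29.4% in 4HC. With this division, the level of SSBP1 rests on the sum of both copies and not on either of them.

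TOP1MT, the topoisomerase that relaxes supercoils in mtDNA (chromosome 8, 143309324 to 143359981), was at 30.4, 33.1 and 34.5 CPM in control and at 32.3, 33.9 and 29.9 CPM in 4HC. Neither group was set apart, and the log2 fold change was -0.03 (SE 0.062, interval -0.15 to 0.10, adjusted p = 0.75). Its nuclear counterpart TOP1 fell by 0.21 (SE 0.036, adjusted p = 6.54e-06), from 178, 179 and 178 CPM to 154, 154 and 155 CPM. The ratio of TOP1 to TOP1MT on the TPM scale was 2.64 ± 0.179 in control and 2.34 ± 0.156 in 4HC (SD, n = 3, exact permutation p = 0.2, adjusted over the 4 ratios computed 0.267), and the groups overlapped.

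**Figure D3:**
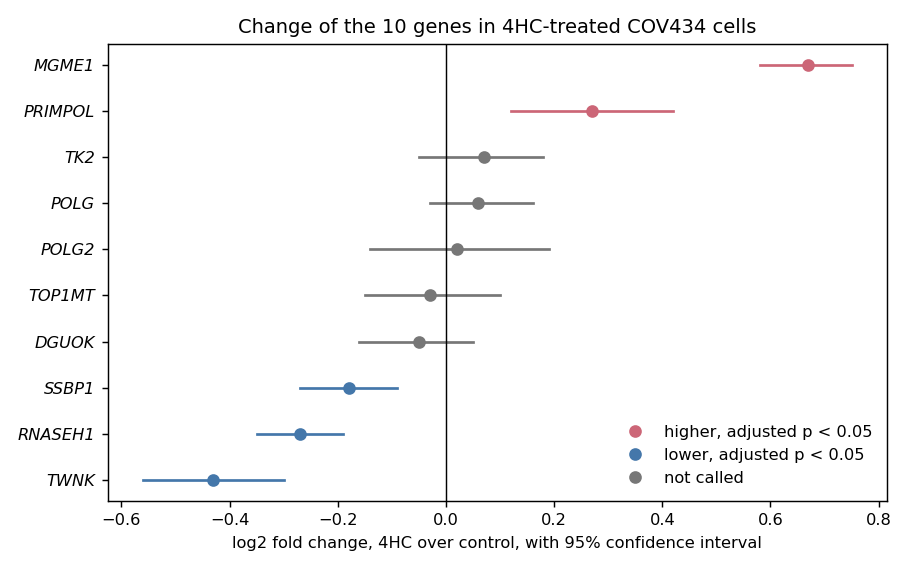
Log2 fold change of each of the 10 genes in 4HC over control (x axis) with its 95% confidence interval, from edgeR's quasi-likelihood fit, in order of the change. The intervals of TWNK, RNASEH1 and SSBP1 lie below 0 and those of PRIMPOL and MGME1 above 0, and those of the other 5 genes include 0.

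Of the genes that start, trim and clear the new strands, PRIMPOL and MGME1 rose and RNASEH1 fell. MGME1, an exonuclease that trims single-stranded flaps of mtDNA so that the ends can be joined (chromosome 20, 17968594 to 17991122), was at 76.1, 73.2 and 78.9 CPM in control. In 4HC it was at 116, 121 and 125 CPM. The lowest 4HC sample was far above the highest control. The log2 fold change was 0.67 (SE 0.043, interval 0.58 to 0.75, edgeR adjusted p = 1.99e-18), a fold of 1.59 and the largest change of the 10 genes, at percentile 97.2 of all genes tested. On the TPM scale MGME1 went from 60.4 ± 2.75 to 95.0 ± 3.89 (SD, n = 3). SNX5, a sorting nexin that starts 67 bases from MGME1 on the opposite strand and shares 68 exon bases with it, was at 127, 117 and 131 CPM in control and 120, 122 and 122 CPM in 4HC (log2 fold change -0.04, SE 0.041, adjusted p = 0.42).

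PRIMPOL, a primase and polymerase of nucleus and mitochondria that can restart synthesis beyond a lesion (chromosome 4, 184649672 to 184694952), was at 16.2, 17.6 and 16.8 CPM in control and 19.9, 21.3 and 20.0 CPM in 4HC. All 3 4HC samples were above the controls by more than the spread within either group. It rose by 0.27 on the log2 scale (SE 0.075, interval 0.12 to 0.42, edgeR adjusted p = 0.00294), a fold of 1.21. This was the call with the least margin among the 5. The tail of PRIMPOL overlaps CENPU, a centromere gene, by 346 exon bases on the opposite strand, and CENPU rose by 0.54 (SE 0.049, adjusted p = 3.65e-13), from 55.8, 51.6 and 50.2 CPM to 78.4, 77.7 and 73.1 CPM. The expected counts of PRIMPOL and CENPU were not whole numbers in any sample. No source states that the counting used strand, and the part of CENPU in the rise of PRIMPOL was not tested.

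RNASEH1, the ribonuclease that removes the RNA strand of RNA-DNA hybrids in mitochondria and nucleus (chromosome 2, 3531813 to 3558367), was at 118, 117 and 116 CPM in control. It was at 94.4, 98.2 and 99.0 CPM in 4HC. Both groups were narrow and well apart. RNASEH1 fell by 0.27 on the log2 scale (SE 0.041, interval -0.35 to -0.19, edgeR adjusted p = 4.5e-07), a fold of 0.83, at percentile 7.3 of all genes tested. Per transcript length the level went from 36.5 ± 0.425 to 30.2 ± 0.621 TPM (SD, n = 3). In GENCODE 29 the exons of RNASEH1 share 125 bases with its antisense gene RNASEH1-AS1, and 94 bases with AC108488.2, annotated as coding on the same strand, neither of which is in the deposited gene table. Reads within these stretches cannot be assigned to 1 gene here.

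The salvage kinases of the organelle showed no detectable change. TK2, the mitochondrial thymidine kinase, which phosphorylates thymidine and deoxycytidine (chromosome 16, 66469812 to 66551189), was at 42.1, 41.7 and 41.0 CPM in control and 46.7, 41.1 and 42.8 CPM in 4HC. The first 4HC sample was the highest and the others lay with the controls. The log2 fold change of TK2 was 0.07 (SE 0.055, interval -0.05 to 0.18, adjusted p = 0.374). DGUOK, the kinase for deoxyguanosine and deoxyadenosine (chromosome 2, 73926827 to 73958961), was at 49.2, 48.3 and 49.7 CPM in control and 46.1, 48.4 and 47.3 CPM in 4HC, with 1 4HC sample inside the control range. Its log2 fold change was -0.05 (SE 0.052, interval -0.16 to 0.05, adjusted p = 0.435). By these intervals a rise of TK2 or a fall of DGUOK of more than 0.18 or 0.16 on the log2 scale lies outside the 95% limits.

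The cytosolic kinases that make the same products did move. TK1, the thymidine kinase of dividing cells, rose by 0.56 (SE 0.039, adjusted p = 1.2e-17), from 124, 123 and 116 CPM to 183, 180 and 174 CPM. DCK, the deoxycytidine kinase, was at 40.7, 37.7 and 44.3 CPM in control and 44.4, 48.3 and 48.2 CPM in 4HC, with the highest control just under the lowest 4HC sample. It rose by 0.20 (SE 0.057, adjusted p = 0.00453), but with control replicate 2 left out it missed the threshold (adjusted p = 0.0669). The ratio of TK1 to TK2 on the TPM scale was 11.6, 11.6 and 11.0 in control and 15.5, 17.2 and 16.1 in 4HC, with means of 11.4 ± 0.328 and 16.3 ± 0.829 (SD, n = 3). That of DCK to DGUOK was 0.239, 0.228 and 0.259 in control and 0.283, 0.292 and 0.297 in 4HC. Neither pair of groups overlapped, and both ratios had the smallest p that the exact permutation test can give, 0.1 (adjusted over 4 ratios 0.2).

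The order of the 10 genes by level per length changed little. In control the TPM values ran from SSBP1 (499 ± 31.6) through DGUOK (119 ± 3.02), MGME1 (60.4 ± 2.75), RNASEH1 (36.5 ± 0.425), TOP1MT (30.8 ± 2.13), POLG (25.5 ± 0.127), POLG2 (19.8 ± 1.35), TWNK (17.3 ± 1.37) and PRIMPOL (14.7 ± 0.355) to TK2 (14.2 ± 0.163), each with its SD and n = 3. POLG2 and TWNK overlapped in their samples, as did PRIMPOL and TK2. In 4HC the TPM of TWNK was 12.9 ± 0.96 and the lowest of the 10, below TK2 (14.8 ± 1.07), PRIMPOL (17.5 ± 0.519) and POLG2 (20.0 ± 0.89). In 4HC the samples of RNASEH1 (30.2 ± 0.621 TPM) and TOP1MT (29.9 ± 1.79 TPM) overlapped, where in control those of RNASEH1 had been the higher.

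Expected counts of the 10 genes were 250 to 2050.1 per sample. In 7 genes they were whole numbers in every sample, and in POLG, MGME1 and PRIMPOL they were not. POLG overlaps the tail of FANCI, a gene of the Fanconi anemia pathway for DNA crosslink repair, by 458 exon bases on the opposite strand. FANCI rose by 0.73 (SE 0.038, adjusted p = 3.73e-22), from 114, 109 and 110 CPM to 181, 185 and 187 CPM, and its part in the value of POLG was not tested. TK2 starts 19 bases from CKLF, a chemokine-like gene on the opposite strand with no shared exon base, and CKLF rose by 0.31 (SE 0.068, adjusted p = 0.000258). Exons of TK2 also share 1056 bases with a noncoding gene on the opposite strand (AC010542.4), and those of DGUOK share 62 with its antisense gene DGUOK-AS1, neither of which is in the coding gene table.

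At the level of transcripts, 74 were listed for the 10 genes and 51 were tested. The transcript counts varied far more between replicates than the gene counts, with a biological coefficient of variation of 0.724 over all transcripts. In simulated counts only 18% of transcripts with a log2 change of 1 were called, so a transcript that was not called may still have changed. The simulation held few changed transcripts, with 12 called against 546 in the data, so its share need not hold for the real fit. Of the 51, 2 were called with edgeR's quasi-likelihood test, both lower and both of RNASEH1, against 1.29% of all 42216 transcripts tested in either direction. These 2, NM_002936 and NM_001286834, were given the same expected count in each sample, 946.04, 931.58 and 942.56 in control and 760.85, 772.44 and 775.94 in 4HC, and so are 1 measurement. Their log2 fold change was -0.29 (SE 0.035, edgeR adjusted p = 0.0272), and each held 49.2% of the reads of RNASEH1 in control and 48.4% in 4HC. The call was lost with no filter on low counts (adjusted p = 0.0661), and without any 1 sample it lay between 0.101 and 0.131.

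In MGME1, NM_052865 had counts of 703.09, 643.92 and 822.38 in control and 1056.87, 1119.36 and 1232.71 in 4HC. All 4HC samples were above the controls, with a log2 fold change of 0.65 (SE 0.10, edgeR adjusted p = 0.0571), just short of the threshold over all transcripts. NM_001310338 was at 256.34, 296.08 and 279.6 in control and 427.61, 519.95 and 409.86 in 4HC, also without overlap (0.71, SE 0.12, adjusted p = 0.0694). Both passed with DESeq2 (adjusted p = 4.98e-08 and 9.36e-05), and with transcripts of at least 10 counts in every sample, a filter added after seeing the data (0.0199 and 0.0343). NM_052865 also passed with library size as the only scaling (0.0484), while without 1 sample the adjusted p reached 0.20 and 0.231. The division of the gene stayed much the same: NM_052865 held 58.1% of the reads in control and 57.5% in 4HC, and NM_001310338 held 22.3% and 22.9%.

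In POLG the division of reads between transcripts varied more than the level of the gene. It has 2 transcripts, and NM_002693 was given 353.96, 40.99 and 288.56 reads in control and 211.99, 395.82 and 146.26 in 4HC, while the gene itself was steady between samples. In TWNK, NM_021830 held 75.6% of the reads in control and 72.6% in 4HC, with a log2 fold change of -0.49 (SE 0.26, interval -1.14 to 0.16, adjusted p = 0.666). Among the 18 transcripts of PRIMPOL, NM_001345895 was at 22.11, 0 and 1.39 in control and 26.57, 53.54 and 51.47 in 4HC, with a share of 2.84% in control and 13.1% in 4HC, and was not called (adjusted p = 0.762). A count of 0 in a sample allows up to 3 counts.

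The remaining transcripts with at least 10% of the reads of their gene were also uncalled. NM_152683 and NM_001300768 of PRIMPOL held 26.5% and 18.3% in control and 31.6% and 16.3% in 4HC. For DGUOK, NM_001318860 held 68.5% and 67.7% and NM_080918 held 19.4% and 18.0%. TK2 was read mostly from NM_004614, with 75.2% in control and 69.3% in 4HC, and from NM_001272050, with 11.7% and 16.1%. TOP1MT came almost entirely from NM_052963 (98.1% and 95.4%), and POLG2 has the single transcript NM_007215. In SSBP1, NM_003143 held 39.4% and 37.8% on the chromosome and 22.6% and 23.6% on the scaffold, and NM_001256513 held 14.4% and 15.6% on the chromosome and 10.1% and 7.75% on the scaffold. Its scaffold count swung from 255.98 in 1 control to 0 in 1 4HC sample.

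**Figure D4:**
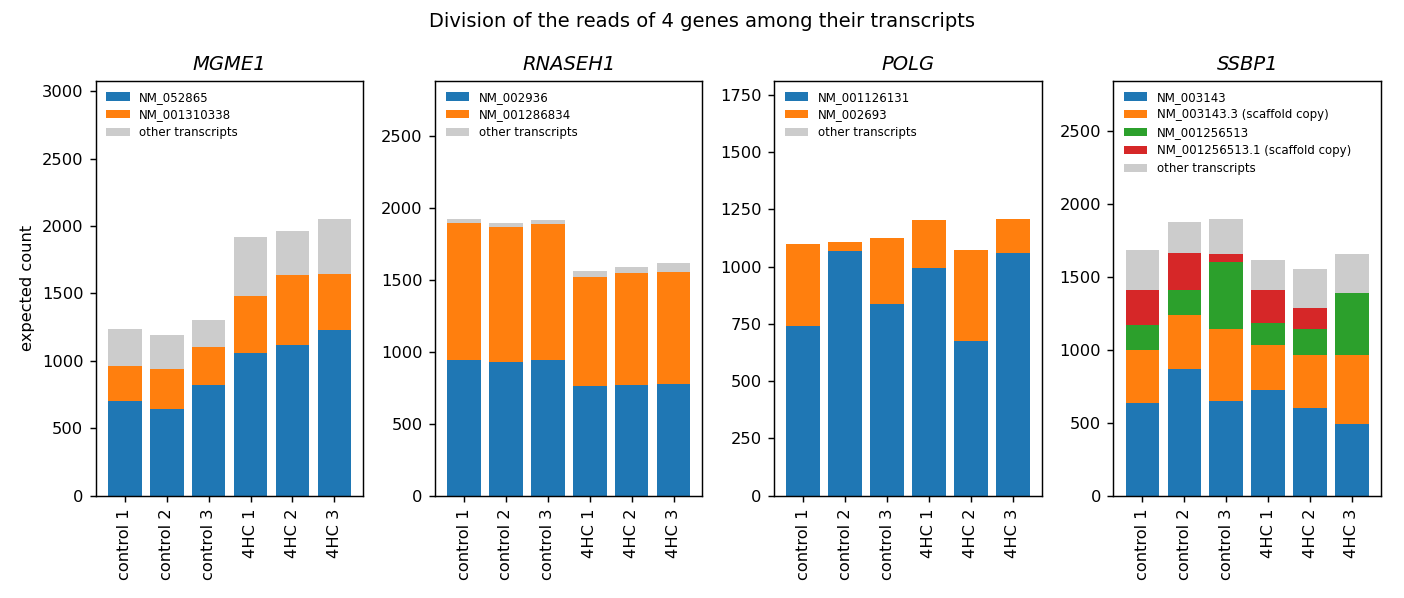
Expected counts (y axes from 0, not normalized) of the transcripts of MGME1, RNASEH1, POLG and SSBP1 in each of the 6 samples, stacked to the total of the gene. MGME1 grows and RNASEH1 shrinks in 4HC with a similar division, while the parts of POLG and SSBP1 vary between samples of the same group.

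The wider pathway was followed in 73 companion genes in 6 lists, of which 72 were tested, with CMPK2 too low for a test. Calls went evenly both ways, with 19 genes higher, 19 lower and 34 uncalled, with a median log2 fold change of -0.02, where 19.2% of all genes tested were higher and 17.1% lower. In the list of 12 further replication and processing factors, 4 rose and 5 fell (median 0.09). Among its nucleases, DNA2, which cuts flaps, rose by 0.61 (SE 0.05, adjusted p = 1.09e-14), from 49.7, 45.8 and 49.7 CPM to 70.5, 76.6 and 74.0 CPM, and FEN1, a flap endonuclease, by 0.46 (SE 0.04, adjusted p = 5.93e-14). EXOG, a mitochondrial nuclease named after its value was seen, was not called (log2 fold change 0.12, SE 0.06, adjusted p = 0.115). TOP3A, the topoisomerase that separates finished mtDNA circles, rose by 0.22 (SE 0.05, adjusted p = 0.000408). DNA2, FEN1 and TOP3A also serve nuclear DNA.

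Other factors of this list fell. PIF1, a helicase of nucleus and mitochondria, was at 11.4, 13.0 and 13.0 CPM in control and 6.7, 5.86 and 4.96 CPM in 4HC, with every 4HC sample well below the controls. It fell by 1.10 on the log2 scale (SE 0.11, adjusted p = 1.98e-11). POLRMT, the mitochondrial RNA polymerase that also makes the replication primers, fell by 0.19 (SE 0.044, adjusted p = 0.000491), and TFB2M, its initiation factor, by 0.30 (SE 0.062, adjusted p = 9.18e-05). TFAM, which packages mtDNA and starts its transcription, was at 99.5, 97.5 and 98.1 CPM in control and 99.5, 108 and 106 CPM in 4HC, a log2 fold change of 0.09 (SE 0.042, adjusted p = 0.101). TFAM passed the threshold with library size as the only scaling (adjusted p = 0.0383) and without 4HC replicate 1 (0.039).

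Of 16 tested genes of deoxynucleotide supply, 5 rose and 1 fell (median -0.00), where 19.2% of all genes tested were higher and 17.1% lower. The 3 subunits of ribonucleotide reductase, which makes deoxynucleotides in the cytosol, all rose: RRM1 by 0.57 (SE 0.034, adjusted p = 8.64e-20), RRM2 by 0.84 (SE 0.033, adjusted p = 3.52e-27) and RRM2B, the p53-inducible subunit that supplies mtDNA synthesis outside S phase, by 0.71 (SE 0.04, adjusted p = 4.68e-21). RRM2B was at 113, 109 and 108 CPM in control and 171, 183 and 187 CPM in 4HC, far apart. SAMHD1, which degrades deoxynucleotides, was at 79.6, 78.1 and 82.5 CPM in control and 78.6, 75.1 and 78.8 CPM in 4HC (log2 fold change -0.05, SE 0.045, adjusted p = 0.438). NME6, a nucleoside diphosphate kinase, was the 1 gene that fell, by 0.16 (SE 0.061, adjusted p = 0.0368), and its call was lost in 10 of 15 alternatives, DESeq2 among them (adjusted p = 0.131).

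Among the 10 cytosolic and nuclear counterparts of these genes, 7 rose and 1 fell. Of all genes tested, 19.2% were called higher and 17.1% lower. Median log2 fold changes were 0.28 for the counterparts and 0.00 for all genes tested. Besides TK1 and DCK, PRIM1, the catalytic subunit of the nuclear primase, rose by 0.51 (SE 0.069, adjusted p = 2.64e-08), from 17.5, 18.2 and 18.9 CPM to 25.7, 25.3 and 27.1 CPM. The 1 gene that fell was TOP1. Whether the counterparts changed more than the mitochondrial genes was not tested, and the list was chosen with earlier results of these data known.

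**Figure D5:**
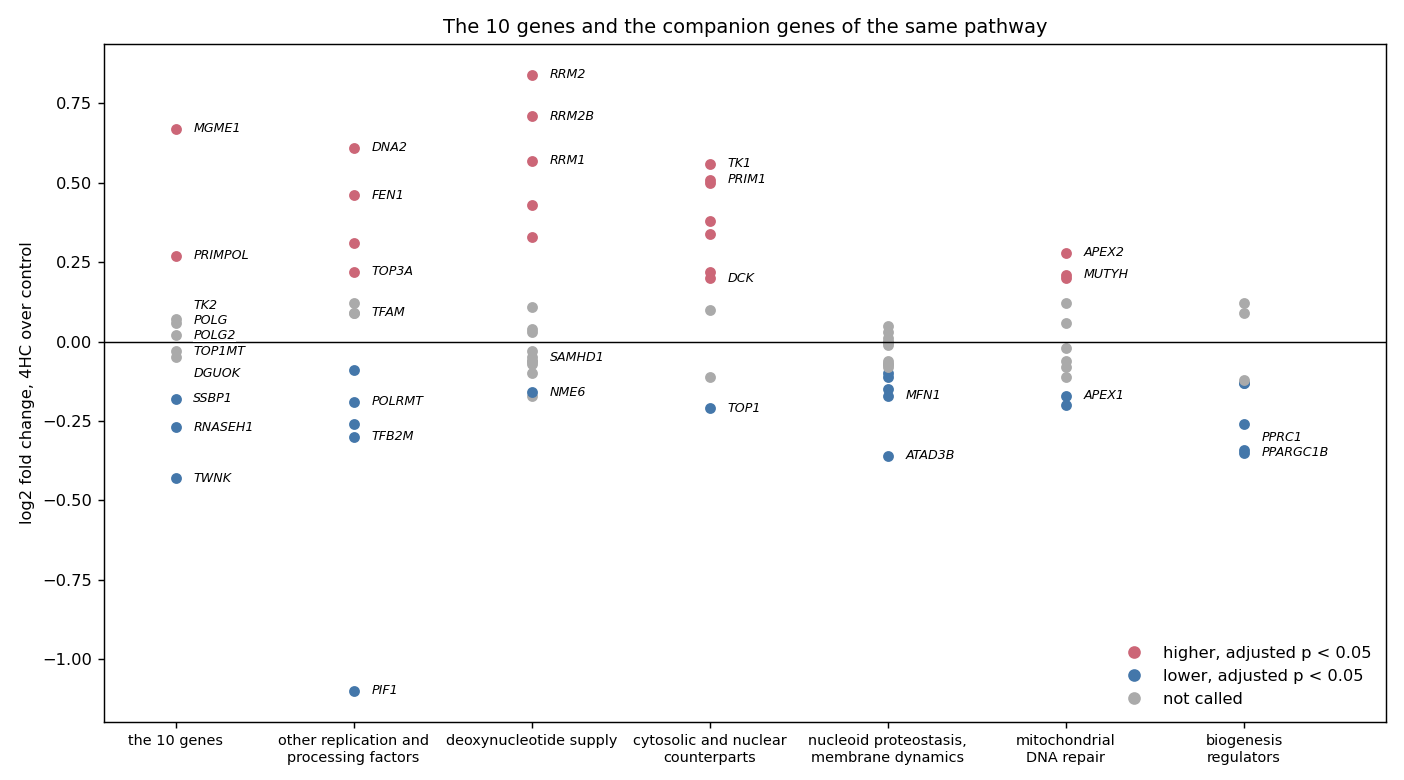
Log2 fold change in 4HC over control (y axis) of the 10 genes and of the 72 tested companion genes in 6 lists (x axis), each point 1 gene, colored by its call; the 10 genes and the companions named in the text carry their symbols. The counterparts lie mostly above 0, the 10 genes spread to both sides, and PIF1 is the lowest point at -1.10.

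The deposited gene table lists 0 genes of the mitochondrial chromosome, so the transcripts of mtDNA itself were not analysed here, and no file used here measures mtDNA copy number or protein.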

How the data were processed

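Total RNA of 3 control and 3 4HC samples of COV434 cells was sequenced. Per the submitters' processing notes, HISAT2, Bowtie2, RSEM 1.3.1 and DESeq2 1.4.5 were used with GRCh38.p13, without a stated role for each. The authors deposited expected counts, which are not normalized, for 16798 coding genes and for transcripts, with TPM and FPKM values scaled by the authors for length and library. Their columns of log2 fold changes, p-values and q-values were not used. A second deposited gene table held the same values in its 27 columns.

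Expected counts (85.5% whole) were rounded before the test in edgeR 4.0.16 under R 4.3.3 (TMM, filterByExpr, quasi-likelihood test, condition as the only term). A Benjamini-Hochberg adjusted p under 0.05 over 12368 genes, or 42216 transcripts, was a call. The fit was first tested on simulated data. Of simulated gene changes of 0.25, 0.5 and 1 on the log2 scale, 53.7%, 89.6% and 98.5% were called in the right direction. For transcripts these shares were 0%, 1.6% and 18%. The simulation changed fewer features than were called in the data, with 167 genes and 12 transcripts called in it. These shares therefore need not hold for the real fit. A total of at least 16133786 per sample left every gene of the 10 with 250 counts or more. Replicate pairs differed by more than counting noise (chi-square per gene 1.68 to 2.39) and were kept as separate samples. Counting error covers only the reads, not their amplification.

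The members, lists and naming rule were chosen with earlier results of these data known. Named were all 10 members, up to 2 companions per list with the largest rise and 2 with the largest fall among those called, 10 fixed companions, and transcripts with at least 10% of their gene or a call. Some genes that this rule or the search for neighbors gives are not reported here. NCBI Gene numbers, coordinates and promoter windows came from the deposited table, GENCODE 29 and RefSeq, and neighbors were looked up after the values were seen. Alternatives were DESeq2 1.42.0, its size factors in edgeR, library size only, no filter, at least 10 counts in every sample (for transcripts added after seeing the data), the replicate block, limma 3.58.1 on log2 of TPM or FPKM with a pseudocount of 1 (or 0.1 for TPM), and leaving out each sample. Ratios used exact permutation tests in scipy 1.17.1.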

Additional observations from a re-analysis of the deposited data

How the results depend on the processing

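The calls of the 10 genes, 2 higher and 3 lower, and their direction held in each of the 15 alternatives for the 5 called genes. MGME1 ranged from 0.64 to 0.69 on the log2 scale, PRIMPOL from 0.24 to 0.30 with adjusted p up to 0.0381, TWNK from -0.47 to -0.36, RNASEH1 from -0.28 to -0.24 and SSBP1 from -0.23 to -0.15. Of the uncalled genes, leaving out 1 sample turned the sign of POLG2 (-0.02 to 0.07) and TOP1MT (-0.08 to 0.02). With limma on log2(FPKM + 1), 1343 genes were lower in place of 2118, and 12 companions in place of 19. Same-numbered samples did not deviate together (correlations 0.009, 0.069 and 0.03), so the values show no pairing by number. Nothing states whether same-numbered samples were handled together. With the replicate block, 2259 genes were higher and 1954 lower, against 2379 and 2118 without it, and the 10 genes kept their calls, but 0 transcripts were called, of all genes or of the 10, where 3761 and 5 had an unadjusted p under 0.05. Transcript calls depended on the setting: of all transcripts 546 were called, 2492 with DESeq2, 932 with at least 10 counts in every sample, and 58 to 127 without 1 sample; of the 10 genes 2 were called, 5 with DESeq2 or at least 10 counts, 0 with no filter, where 5 had an unadjusted p under 0.05, and 0 in each fit without 1 sample, where 5 to 7 had. Leaving out 1 sample also turned the sign of uncalled transcripts: NM_001126131 (-0.09 to 0.21), NM_002693 (-0.36 to 0.62), NM_007215 (-0.02 to 0.07), NM_001300768 (-0.17 to 0.36), NM_001256513 (-0.67 to 0.58) with its scaffold copy (-1.36 to 0.00), the scaffold copy of NM_003143 (-0.31 to 0.02) and NM_004614 (-0.11 to 0.01). MUTYH lost its call with DESeq2 and in 5 of the 6 fits that left out 1 sample. The causes were not tested. How depth bears on the transcript calls was not tested either.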

Other observations

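The nucleoid is the protein-DNA body that holds mtDNA. Of 15 genes of nucleoid proteostasis and mitochondrial membrane dynamics, 0 rose and 5 fell by edgeR's test (median log2 fold change -0.07), and of 8 regulators of mitochondrial biogenesis 0 rose and 5 fell (median -0.13), where 19.2% of all genes tested were higher and 17.1% lower. The count of nucleoid and membrane genes that fell was 3 with library size as the only scaling or without 4HC replicate 3 and 2 with limma on log2(FPKM + 1), and that of regulators was 3 with the same limma fit, while 1 regulator rose with library size only. ATAD3B, a nucleoid-associated membrane ATPase, was at 82.5, 86.3 and 82.5 CPM in control and 64.1, 68.1 and 63.7 CPM in 4HC, and fell by 0.36 (SE 0.046, adjusted p = 6.67e-09). MFN1, which fuses outer membranes, fell by 0.17 (SE 0.039, adjusted p = 0.000487). The coactivators PPARGC1B and PPRC1 of mitochondrial gene expression fell by 0.35 (SE 0.093, adjusted p = 0.00232) and 0.34 (SE 0.047, adjusted p = 4.29e-08), and no sample of 4HC reached a control for either.

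Of 11 genes of mtDNA repair, 3 rose and 2 fell (median -0.02), beside the same shares of all genes tested. The AP endonucleases, which cut at sites that have lost a base, moved in opposite directions: APEX1 fell by 0.17 (SE 0.033, adjusted p = 5.73e-05), from 299, 290 and 293 CPM to 260, 265 and 259 CPM, and APEX2 rose by 0.28 (SE 0.063, adjusted p = 0.000372), from 24.1, 23.5 and 25.5 CPM to 30.1, 29.2 and 29.4 CPM. MUTYH, an adenine glycosylase, rose by 0.21 (SE 0.08, adjusted p = 0.035), a call that DESeq2 did not give (adjusted p = 0.169).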
